A study of Mus musculus with 12 samples.

Results

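The rows described here are the predicted Gm genes of the mouse liver, that is, the rows of the expression table whose symbol is Gm followed by digits only. They were chosen by this symbol and by their measured level, a mean of at least 50 normalized counts over the 12 livers, without regard to genotype. The table held 17714 rows, of which 423 carried such a symbol, and 75 of these reached the floor. The livers came from female mice aged 3 weeks, the time of weaning: 6 were labelled Lcorl knockout (KO) and 6 wild type (WT). Total RNA was sequenced, 1 library for each individually numbered mouse, and the livers were taken at about 10 am and frozen. Lcorl is a nuclear relative of Lcor, a corepressor of ligand-bound receptors.

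A Gm symbol is a provisional name that the mouse nomenclature gives to a gene model known mainly from its sequence. Such models are of several kinds. Some are processed pseudogenes, which are copies of a messenger RNA written back into the genome, so that short reads from the parent transcript can match both places. Others are long noncoding RNAs (lncRNAs), often transcribed from the opposite strand of a neighbouring gene or from a shared promoter. Others are protein-coding genes, and many of those have since received a name.

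RefSeq classed 18 of the 75 rows as pseudogenes, 20 as lncRNAs and 36 as protein-coding genes. Gm17066 had no RefSeq match and was taken as lncRNA from GENCODE, which makes 21 lncRNAs. RefSeq and GENCODE put 10 of the 71 rows that both classify into different classes. The older symbol of 22 rows has been replaced, for instance Gm6484 by Angptl8, Gm16515 by Natd1, Gm11974 by Snhg15 and Gm608 by Usf3. The members lay on 19 chromosomes, with no more than 8 on any of them.

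The pairs of sequences below are shown because 17 of the 18 pseudogene rows had a near copy elsewhere in the table, and because the number of differing bases is what separates reads of one from reads of the other. Each pair gives 120 bases of the parent's coding sequence and the matching stretch of the Gm transcript. Both are from the GENCODE M21 transcripts (GRCm38), 5′ to 3′, with the bases that differ in capitals. The stretch of this length with the most differences was taken, so it is not typical of the whole alignment. Gm15772 and the ribosomal protein gene Rpl26 differed at 2 of 435 coding bases, Gm6644 and Akr1b3, which encodes aldose reductase, at 3 of 948, and Gm5424 and Ass1, which encodes the urea cycle enzyme argininosuccinate synthase, at 6 of 1236. Gm10319 matched only the first part of Mug2, over 673 coding bases with 21 differences.
Rpl26: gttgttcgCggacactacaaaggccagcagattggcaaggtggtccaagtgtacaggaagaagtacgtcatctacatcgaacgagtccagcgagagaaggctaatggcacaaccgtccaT
Gm15772: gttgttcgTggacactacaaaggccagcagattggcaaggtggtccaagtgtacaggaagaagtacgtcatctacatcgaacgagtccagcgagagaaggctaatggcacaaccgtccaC
Akr1b3: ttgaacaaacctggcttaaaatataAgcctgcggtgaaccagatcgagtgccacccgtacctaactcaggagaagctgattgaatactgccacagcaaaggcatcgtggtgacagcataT
Gm6644: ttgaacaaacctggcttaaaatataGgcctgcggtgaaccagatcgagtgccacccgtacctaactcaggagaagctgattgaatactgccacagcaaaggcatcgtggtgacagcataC
Ass1: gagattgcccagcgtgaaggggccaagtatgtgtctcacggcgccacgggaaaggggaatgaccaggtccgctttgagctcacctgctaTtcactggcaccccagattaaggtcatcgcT
Gm5424: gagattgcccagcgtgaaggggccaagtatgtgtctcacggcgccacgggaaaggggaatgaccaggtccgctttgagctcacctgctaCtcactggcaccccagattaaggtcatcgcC
Mug2: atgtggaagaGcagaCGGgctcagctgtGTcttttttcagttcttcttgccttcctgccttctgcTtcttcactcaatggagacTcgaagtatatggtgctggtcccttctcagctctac
Gm10319: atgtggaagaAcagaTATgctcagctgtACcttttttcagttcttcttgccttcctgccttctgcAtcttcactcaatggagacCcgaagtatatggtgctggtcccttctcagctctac

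Sequencing depth was 27692285 to 31296485 reads in KO livers and 21769795 to 28655120 in WT livers. The Gm members took 0.320 to 0.446% of the reads in KO livers and 0.317 to 0.421% in WT livers. Without Gm5424 their share was 0.154 to 0.189% in KO livers and 0.164 to 0.174% in WT livers. All 6 listed hepatocyte markers were in the table and summed to 3012536 to 3855029 normalized counts in KO livers and 3405652 to 3776322 in WT livers. The summed level of the 3 pancreas acinar markers in the table, of 6 listed, was 131 to 280 in KO livers and 273 to 503 in WT livers. That of the 5 fat tissue markers was 190 to 391.6 in KO livers, 68.8 to 146 in WT 1 to WT 5 and 330 in WT 6. All KO livers but KO 2 were below every WT liver for the pancreas list, and all KO livers were above WT 1 to WT 5 for the fat list. The 5 erythroid markers summed to 2668 to 5186 in KO 1 to KO 5 and 9280 in KO 6. In WT livers they summed to 3358 in WT 4 and 5467 to 16276 in the others. The part of these lists in the results below was not tested. The targeted gene Lcorl had 0 normalized counts in 5 KO livers and 2.83 in KO 5, against 234 to 308 in the WT livers. Member means ran from 51.6 to 58688 normalized counts with a median of 211, and 66 of the 75 were below 1000. Just inside the floor were Gm10094 at a mean of 51.6 and Gm5150 at 55.4, and just outside it Gm9958 at 49.9 and Gm13889 at 49.5. Counts are not corrected for transcript length and do not order the members by molecules.

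Predicted Gm genes passed the test between genotypes at a share not far from that of all rows, 1 of them higher and 4 lower in KO. Genotype was tested by a limma fit to log2(normalized count + 1) for 13569 rows, those with a mean of at least 10, with p-values adjusted by Benjamini and Hochberg over all of them and a threshold of 0.05. All fold changes are KO over WT on this scale, which understates the change of rows with low counts. By this test 5 of the 75 members passed, or 6.67%, beside 4.43% of all rows tested and 4.73% of rows with a mean of at least 50. One of the 5, Gm4285, rose in KO (1.33% of members, beside 1.75% of all rows), and 4 fell, Gm10319, Gm14403, Gm15408 and Gm16515 (5.33%, beside 2.68%). The change was at least 1.5-fold for 4 of the 5 (5.33% of members, beside 2.67% of all rows), all but Gm16515. The ranges of KO and WT livers did not overlap for 3 members, Gm10319, Gm4285 and Gm16515 (4.0%, beside 2.96% of all rows). The median log2 fold change was 0.02 over the members and 0.01 over all rows tested, and 55 of the 75 members (73.3%) lay within 0.32 of 0 on that scale, beside 78.5% of all rows tested and 82.8% of rows with a mean of at least 50. By class, 1 of 18 pseudogenes, 3 of 21 lncRNAs and 1 of 36 protein-coding genes passed. These counts are too small to set the classes apart from each other or from the 4.43% of all rows.

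The count of 5 rested on most of the libraries. Leaving out KO 1, KO 2, KO 4, WT 2, WT 3 or WT 4 left 2 members past the threshold, and leaving out KO 3, KO 5, WT 1 or WT 5 left 3. Without KO 6 or without WT 6 it was 6. The count over all rows also moved, being 601 with all livers, 224 to 582 without any 1 of the first 10 and 908 and 933 without KO 6 and WT 6. With a block for each run of neighbouring animal numbers, 1 member passed (1.33%, beside 1.16% of all rows), and it was Gm10319. The run of WT 2 and WT 3 held no KO liver, and that of KO 2 to KO 4 held WT 4 as its only WT liver. Runs were thus partly confounded with genotype. For a call lost with the block, an effect of the run and a loss of power cannot be told apart. On whole reads recovered from the table, edgeR called 6 members (8.0%, beside 4.1% of all rows) and DESeq2 called 8 (10.7%, beside 9.94%). By the adjusted p of the authors' deposited table, 8 members passed (10.7%, beside 9.46% of all rows tested here), and these were the 5 above with Gm14420, Gm10658 and Gm16551.

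**Figure D1:**
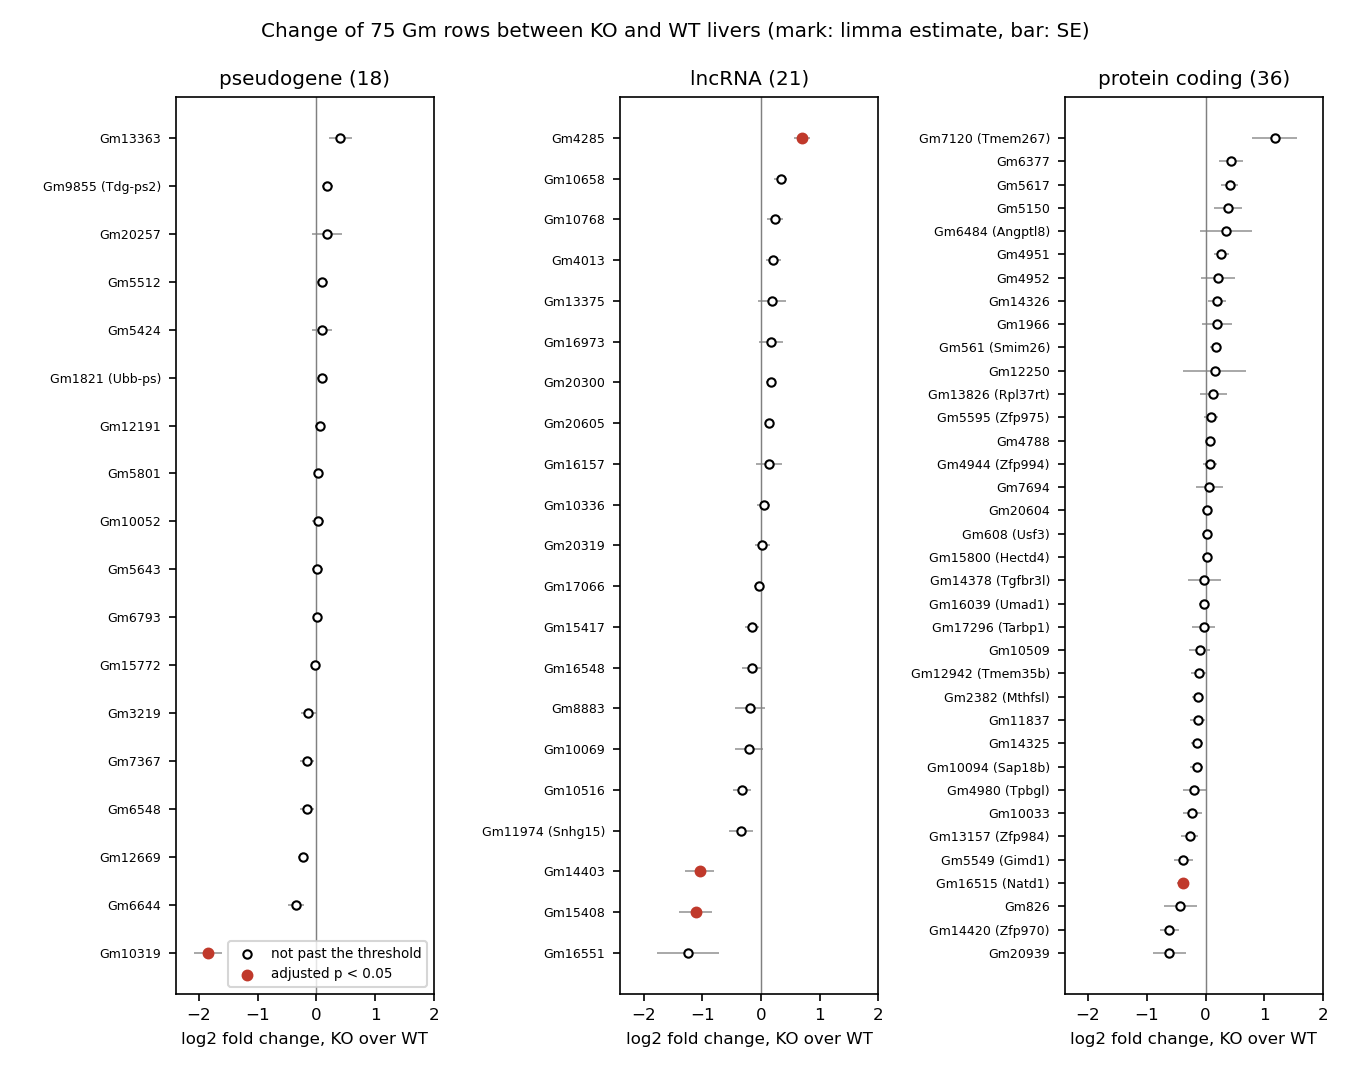
Log2 fold change of the 75 Gm rows, KO over WT, in 3 panels by RefSeq class (GENCODE for Gm17066); each mark is the limma estimate, each bar its SE, and filled marks passed an adjusted p of 0.05. The passing rows are Gm10319 among pseudogenes, Gm4285, Gm14403 and Gm15408 among lncRNAs and Gm16515 among protein-coding genes.

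Among the pseudogenes, Gm10319 had the largest change of all 75 members. It is a transcribed unprocessed pseudogene on chromosome 6 (122136628 to 122152016, plus strand; GENCODE M21, GRCm38), in the cluster of murinoglobulin genes, which encode secreted proteinase inhibitors of the alpha-macroglobulin family made in rodent liver. It lies 23999 bases from Mug-ps1, and its best transcript match among genes in the table is Mug2, at 90.5% identity over 825 bases. Gm10319 had 61.1, 39.6, 85.9, 87.6, 71.6 and 132 normalized counts in KO livers 1 to 6, against 369, 209, 291, 245, 271 and 266 in WT livers 1 to 6. Every KO liver was below every WT liver, and KO 6 was the nearest to the WT range. The means were 79.7 ± 31.3 in KO and 275 ± 53.9 in WT (SD, n = 6 each). This was a level 3.59-fold lower in KO, or −1.85 on the log2 scale (SE 0.23, adjusted p = 0.00181, limma). It passed the threshold under all 23 alternatives, with an adjusted p of at most 0.0202.

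The neighbours of Gm10319 in the murinoglobulin cluster were not uniform. Mug2 had 2723 to 4816 normalized counts in KO livers with a median of 3388, and 8182 to 12794 in WT livers with a median of 10577. The 2 ranges did not overlap, and Mug2 fell in KO with a log2 fold change of −1.59 (SE 0.14, adjusted p = 9.38e-05, limma). Mug-ps1 had 584 to 1191 in KO livers and 1406 to 2797 in WT livers, also with no overlap (log2 fold change −1.0, SE 0.19, adjusted p = 0.0139, limma). Mug1, the murinoglobulin with the most counts, had 33344 to 44876 in KO livers and 38985 to 46881 in WT livers. These ranges overlapped, and Mug1 did not pass the threshold (log2 fold change −0.12, SE 0.09, adjusted p = 0.487, limma). The count of Gm10319 was 0.0131 to 0.0364 of that of Mug2 in KO livers and 0.0227 to 0.0323 in WT livers, and the 2 ranges of this ratio overlapped. Whether reads of Mug2 were counted for Gm10319 was not tested, because no source used here gives the rule for reads that match several places.

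**Figure D2:**
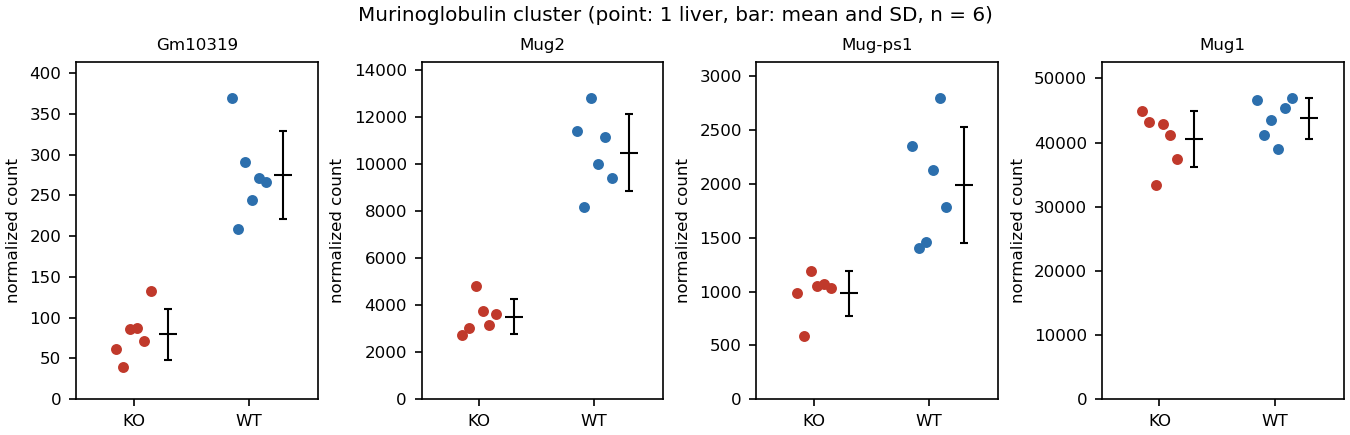
Normalized counts of Gm10319, Mug2, Mug-ps1 and Mug1 in each liver, KO left and WT right; points are single livers, and the bar beside them is the mean with its SD (n = 6). KO and WT points are separate for the first 3 genes, and for Mug1 the KO range of 33344 to 44876 overlaps the WT range of 38985 to 46881.

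2 pseudogene rows were identical to the row of their parent in all 12 libraries. Gm15772, on chromosome 5 (3236431 to 3236868, plus strand), held the same 36868 reads as Rpl26, and both had 2772 to 3334 normalized counts in KO livers and 2853 to 3275 in WT livers. The ranges overlapped almost wholly, and the log2 fold change was −0.02 (SE 0.06, adjusted p = 0.853, limma). Gm6644, on chromosome 1 (55444074 to 55445024, minus strand), held the same 1180 reads as Akr1b3. Both had 71.3 to 106 normalized counts in KO livers and 86.7 to 141 in WT livers, overlapping ranges with a log2 fold change of −0.35 that did not pass (SE 0.14, adjusted p = 0.165, limma). For such a pair the values cannot be assigned to either place in the genome, and a row that repeats another adds no separate measurement.

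Other rows were all but identical. Gm5424, the member with the most counts, on chromosome 10 (62071123 to 62072362, plus strand), differed from Ass1 by at most 32 reads in any library, or 0.0501%. Its levels were 39566 to 74239 normalized counts in KO livers with a median of 64703, and 39555 to 69180 in WT livers with a median of 59160. The groups overlapped over nearly their whole range, with KO 6 and WT 6 the lowest of their groups in both rows (log2 fold change 0.09, SE 0.17, adjusted p = 0.802, limma). Gm12191 and the ribosomal protein gene Rpl30 differed by at most 5 reads, and Gm7367 and Ubald2 by at most 1 read. In all, 5 pseudogene rows lay within 1% of their near copy in every library, and 9 of the 17 within 5%.

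The remaining 8 pseudogene rows stood further from their near copy, several of them at a ratio that kept to a narrow band. Gm10052 and Gm5643, copies of the RNA-binding protein gene Hnrnpa1, had 0.505 to 0.596 and 0.580 to 0.687 of its normalized count over the 12 livers. The Gm10052 transcript matched Hnrnpa1 at 100% identity over 960 bases. Thus the number of differing bases did not order the pairs by how near their rows were. Gm6793 had 0.305 to 0.352 of the count of Hnrnpa3. Gm12669 had 0.638 to 0.725 of that of Glrx3, a glutaredoxin gene, and the log2 fold change was −0.24 for both (adjusted p = 0.0968 and 0.082, limma). Gm3219 was the one of these 8 with more counts than its copy, at 6.84 to 16.6 times those of Bcl7c, and it lies 16 bases from Glud1, the gene of glutamate dehydrogenase, on the same strand. Of all near copies of members in the table, Mug2 alone passed the threshold.

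**Figure D3:**
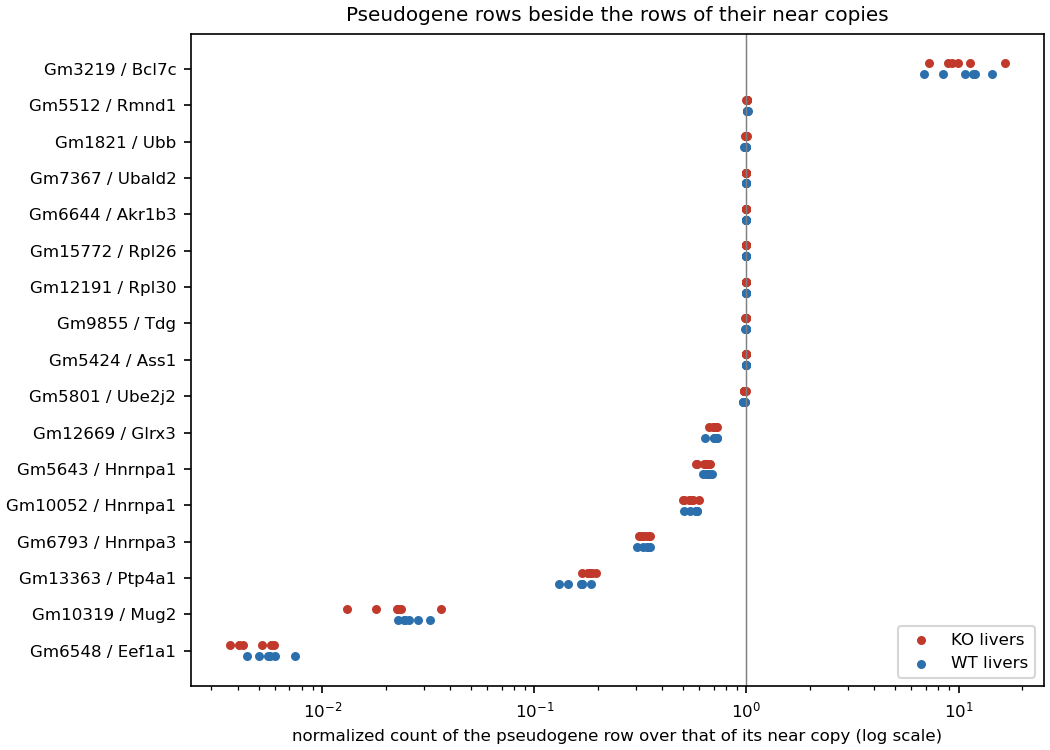
Normalized count of each of 17 pseudogene rows divided by that of its near copy, on a log axis, 1 point per liver with KO above WT in each row. 9 pairs lie within 5% of a ratio of 1 in every liver, 7 lie below and Gm3219 over Bcl7c lies above.

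Among the lncRNAs, Gm4285 was the one member that rose past the threshold. It is annotated as an antisense RNA on chromosome 14 (75843379 to 75844964, minus strand), and 128 bases separate its start from that of Tpt1, which runs the other way and encodes the translationally controlled tumour protein. The stretch from 128 bases before the start of Gm4285 to 50 bases after it, chr14:75844915-75845092 on the minus strand of GRCm38.p6 from the RefSeq promoter table, is shown because it covers the whole gap between these starts. Capitals mark the first 50 transcribed bases of Gm4285.
Gm4285: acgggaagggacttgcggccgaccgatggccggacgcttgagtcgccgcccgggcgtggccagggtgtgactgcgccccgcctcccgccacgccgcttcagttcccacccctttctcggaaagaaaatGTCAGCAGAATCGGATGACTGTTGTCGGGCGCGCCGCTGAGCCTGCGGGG

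This stretch held 22 CG dinucleotides and 68.5% G and C. Over the full promoter window of 300 bases it held 35, beside a median of 7 over 32851 promoters, of which 6.95% held as many. A CG reads the same on both strands. The count describes the letters and says nothing of what binds there.

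Gm4285 had 99.4, 122, 116, 148, 102 and 103 normalized counts in KO livers 1 to 6, against 60.0, 62.2, 72.2, 61.2, 77.1 and 89.6 in WT livers 1 to 6. Every KO liver was above every WT liver, and KO 1 and WT 6 were the nearest to each other. Means were 115 ± 18.5 in KO and 70.4 ± 11.6 in WT (SD, n = 6 each), a log2 fold change of 0.70 (SE 0.13, adjusted p = 0.0129, limma). The call was lost only with animal number runs as a block (adjusted p = 0.0878). Its neighbour Tpt1 had 916 to 1268 normalized counts in KO livers and 712 to 1451 in WT livers, with a log2 fold change of 0.10 that did not pass (adjusted p = 0.786, limma).

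Gm14403 lies on chromosome 2 (177498215 to 177509763, plus strand), within a cluster of zinc finger genes. RefSeq classes it as lncRNA and GENCODE M21 as protein coding. It had 364, 293, 407, 332, 331 and 521 normalized counts in KO livers 1 to 6, against 483, 837, 1203, 1014, 967 and 406 in WT livers 1 to 6. WT 2 to WT 5 were above every KO liver, while WT 1 and WT 6 lay within the KO range. The means were 375 ± 81.4 in KO and 818 ± 313 in WT (SD, n = 6 each), a log2 fold change of −1.05 (SE 0.25, adjusted p = 0.0365, limma). The call was lost without any 1 of KO 1, KO 2, KO 4, KO 5 and WT 2 to WT 5, and with the block (adjusted p = 0.166).

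Other members of the same zinc finger cluster are near copies, and reads could be shared among them. Gm14420, now Zfp970, which encodes a zinc finger protein, lies 20086 bases from Gm14403. Its values were 641 to 879 normalized counts in KO livers with a median of 732, and 651 to 1384 in WT livers with a median of 1308. WT 6, at 651, was below all KO livers but KO 3, and the other 5 WT livers were above every KO liver. The log2 fold change was −0.62 (SE 0.17), with an adjusted p of 0.0525 by limma and 0.0371 by edgeR. Gm14326, the best match of Gm14403 among genes in the table at 90.5% identity, changed by 0.20 on the log2 scale (adjusted p = 0.46, limma). Gm14325 changed by −0.14 (adjusted p = 0.45, limma). These 3 were named after their values were seen. WT 6 was also the WT liver with the highest fat tissue markers, and their part in the WT 6 values of Gm14403 and Gm14420 was not tested.

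Gm15408 is a long intergenic noncoding RNA on chromosome 5 (149006962 to 149012776, plus strand). It had 58.0, 31.7, 40.0, 28.9, 54.6 and 81.3 normalized counts in KO livers 1 to 6, against 88.2, 109, 135, 161, 66.3 and 75.3 in WT livers 1 to 6. KO 6 lay above WT 5 and WT 6, and KO 1 to KO 5 were lower than all WT livers. Means were 49.1 ± 19.7 in KO and 106 ± 36.4 in WT (SD, n = 6 each), with a log2 fold change of −1.11 (SE 0.28, adjusted p = 0.0412, limma). The call was lost without any 1 of KO 1 to KO 5 and WT 1 to WT 4, and with the block (adjusted p = 0.202). The nearest named gene in the table, Hmgb1, which encodes an abundant chromatin protein, lies 33926 bases away and did not pass (log2 fold change −0.15, adjusted p = 0.129, limma).

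The other 18 lncRNAs did not pass the threshold. Gm16551, whose values were seen before it was named, lies 1787 bases from Onecut1, the gene of hepatocyte nuclear factor 6, on the same strand of chromosome 9. It had 32.7 to 118 normalized counts in KO livers with a median of 55.6, and 292, 70.9, 268, 35.7, 378 and 91.5 in WT livers 1 to 6. WT 1, WT 3 and WT 5 were above every KO liver, and WT 4 was lower than all KO livers but 1. Its log2 fold change was −1.24 (SE 0.53, adjusted p = 0.182, limma). Onecut1 had 6.93 to 33.9 normalized counts in KO livers, against 56.4, 26.2, 97.6, 20.4, 112 and 11.4 in WT livers 1 to 6. The same 3 WT livers, WT 1, WT 3 and WT 5, were the highest (log2 fold change −1.39, SE 0.56, adjusted p = 0.16, limma). Gm10768, the lncRNA with the most counts, has a RefSeq span that covers 1938 exon bases of Abcc2, the gene of a bile canalicular export pump. The exons of Gm10768 itself were not available. It had 5127 to 8362 normalized counts in KO livers and 4193 to 6911 in WT livers (log2 fold change 0.24, SE 0.14, adjusted p = 0.338, limma), and the ranges overlapped. Abcc2 had 4447 to 5864 normalized counts in KO livers and 4454 to 5794 in WT livers (log2 fold change 0.03, adjusted p = 0.857, limma). The 2 rows were thus not equal. RefSeq gives no strand for Gm10768 in the table used here, so how reads of the overlap were divided between them cannot be told.

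**Figure D4:**
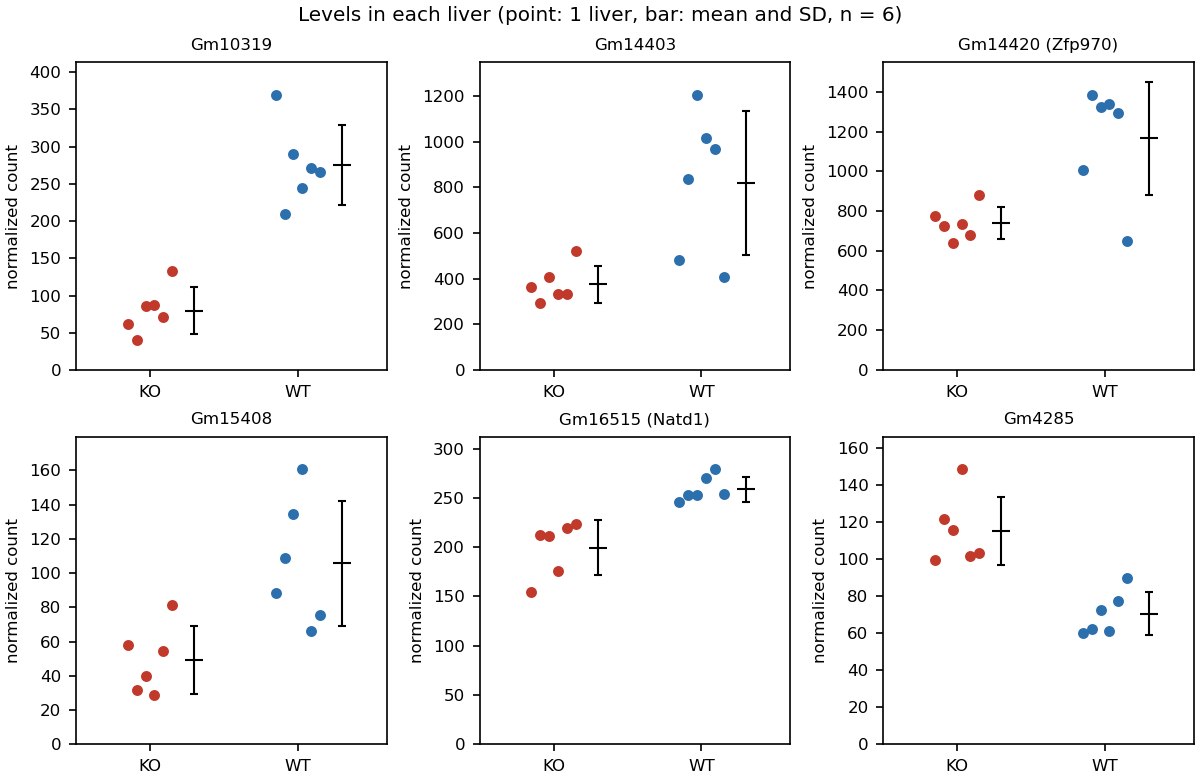
Normalized counts of Gm10319, Gm14403, Gm14420, Gm15408, Gm16515 and Gm4285 in each liver, KO left and WT right; points are single livers, and the bar beside them is the mean with its SD (n = 6). KO and WT points are separate for Gm10319, Gm16515 and Gm4285, and WT 6 lies at KO level for Gm14403 and Gm14420.

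Among the 36 protein-coding rows, Gm16515 passed. It is now Natd1, which encodes a protein with an N-acetyltransferase domain, on chromosome 11 (60902246 to 60914750, minus strand). It had 154, 213, 212, 176, 220 and 224 normalized counts in KO livers 1 to 6, against 246, 253, 253, 270, 279 and 255 in WT livers 1 to 6. Every KO liver was below every WT liver, by a small margin between KO 6 and WT 1. Means were 200 ± 27.9 in KO and 259 ± 12.7 in WT (SD, n = 6 each), with a log2 fold change of −0.39 (SE 0.10, adjusted p = 0.043, limma). The call was lost without any 1 of KO 1 to KO 4 and WT 1 to WT 5, with no filter on low rows (adjusted p = 0.0541) and with the block (adjusted p = 0.0823). The nearest named gene, Map2k3os, 6167 bases away, changed by 0.03 on the log2 scale (adjusted p = 0.959, limma).

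The rest of the protein-coding rows included the largest rise by estimate, which did not pass. Gm7120, now Tmem267, named after its values were seen, had 79.1 to 147 normalized counts in KO livers with a median of 130, and 15.5 to 109 in WT livers with a median of 62.8. KO 5 lay below 3 WT livers and KO 1 below WT 1, so the groups overlapped (log2 fold change 1.18, SE 0.39, adjusted p = 0.0953, limma). Gm4788, the protein-coding row with the most counts, had 6968 to 8917 normalized counts in KO livers and 7228 to 8478 in WT livers. These overlapped (log2 fold change 0.08, SE 0.07, adjusted p = 0.53, limma).

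Gm6484, now Angptl8, encodes a secreted protein of liver and fat that is induced by feeding. It had 6942, 2581, 2939, 3161, 1994 and 2332 normalized counts in KO livers 1 to 6, against 3181, 2782, 5267, 4376, 936 and 955 in WT livers 1 to 6. KO 1 was the highest and WT 5 and WT 6 were the lowest, with the remaining livers of both groups intermixed. The log2 fold change was 0.35 with an SE of 0.45 (adjusted p = 0.696, limma), so at this spread a change of this size was not detectable. The spread within genotype on the log2 scale, as a pooled SD, was 0.89 for this gene, beside a median of 0.25 and a range of 0.09 to 1.06 over the 75 members.

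The highest of these spreads belonged to Gm12250, also known as Irgb10, an interferon-inducible GTPase. It had 140, 64.3, 155, 142, 1292 and 327 normalized counts in KO livers 1 to 6, against 159 to 265 in WT livers with a median of 172. KO 5 stood far above all other livers, and the other KO livers lay on both sides of the WT range (log2 fold change 0.16, SE 0.54, adjusted p = 0.901, limma). Gm4951, whose transcript is 86.2% identical to that of the interferon-inducible GTPase gene Iigp1 over 1280 bases, was also highest in KO 5, at 4111 normalized counts, against 2317 to 2897 in the other KO livers and 2071 to 2620 in WT livers. Iigp1 had 36260 in KO 5, against 6796 to 12032 in the other KO livers and 9098 to 11569 in WT livers. These genes were named after their values were seen, and the reason for the level of KO 5 was not tested.

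**Figure D5:**
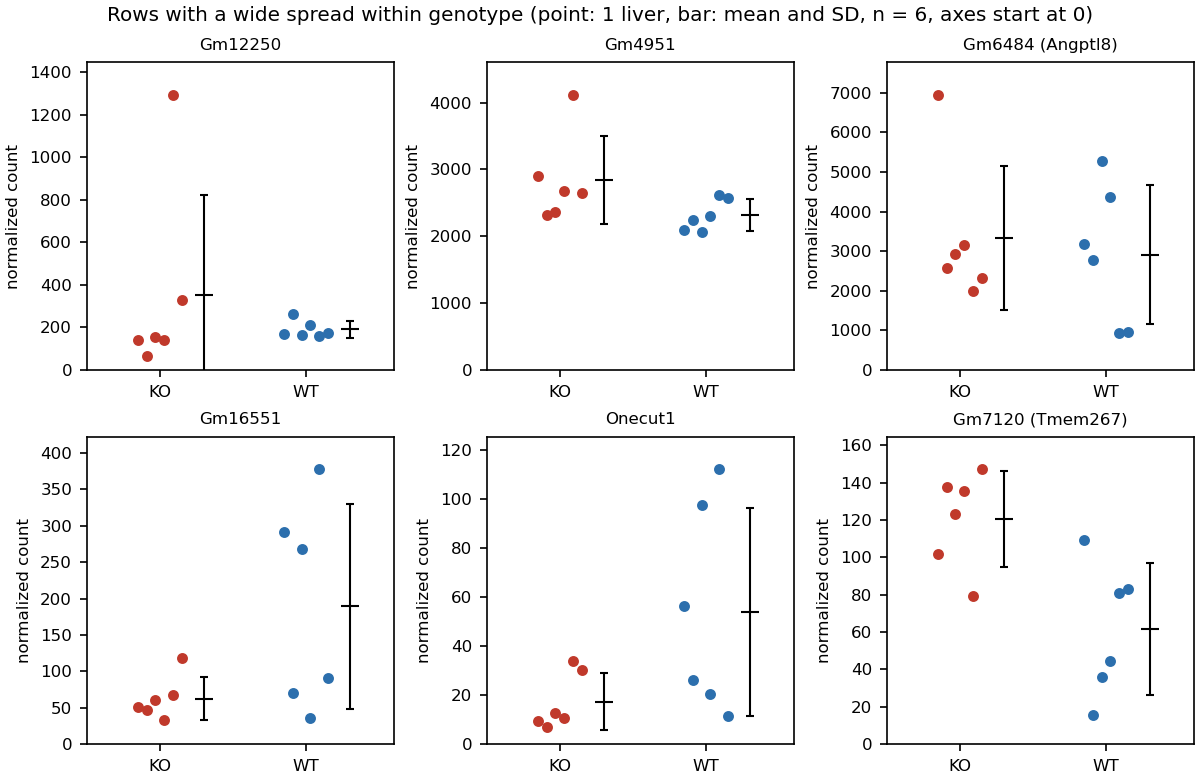
Normalized counts of Gm12250, Gm4951, Gm6484, Gm16551, Onecut1 and Gm7120 in each liver, KO left and WT right; points are single livers, the bar beside them is the mean with its SD (n = 6), and axes start at 0, which cuts the lower bar of Gm12250. Single livers such as KO 5 at 1292 for Gm12250 and KO 1 at 6942 for Gm6484 set the spread.

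Below the floor, 348 Gm rows were counted, and 75 of them reached the mean of 10 that the test required. Of these, 4 passed the threshold (5.33%, beside 4.43% of all rows tested). One, singled out after its values were seen, was Gm3414, annotated inside Lcorl, with 0 normalized counts in all KO livers and 41.0 to 60.5 in WT livers. Of the 423 Gm rows, 60 (14.2%) equalled another row in all 12 libraries, beside 713 (4.03%) of all rows. Of these 60, 53 held at most 11 reads over all libraries, a number at which rows of unrelated genes can be equal. Besides Gm15772 and Gm6644, the equal rows with most reads were Gm1987 with Ccl21a at 460 reads, Gm4070 with Gvin1 at 261 and Gm7334 with Btg3 at 186.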

How the data were processed

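Per the labels' protocols, TruSeq Standard Total RNA libraries were made from livers of 6 KO and 6 WT female mice. Tools named in the submitters' processing notes are FastQC, STAR, featureCounts and DESeq2, with the build mm10. The annotation, the strand setting and the rule for reads with several matches were not given in the sources used here. Reads were divided by 1 factor per library by the authors, who deposited these normalized counts (a signal per gene). Values were whole multiples of the smallest value of each library within 0.001, so whole reads were recovered. The authors' deposited comparison gives log2 fold changes, a score (standard error), p-values and adjusted p-values.

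limma 3.58.1 (R 4.3.3) with a mean-variance trend was fitted to log2(normalized count + 1), genotype only, rows with a mean of at least 10, two-sided, adjusted by Benjamini and Hochberg, threshold 0.05. Each mouse is 1 replicate. Alternatives were pseudocounts 0.5 and 10, other filters, scalings and member floors, edgeR 4.0.16 and DESeq2 1.42.0 on recovered reads, animal number runs as a block (a gap of 10 starts a run), identical rows counted once and libraries left out. On simulated counts for 13569 genes, with 200 changed, this fit of KO against WT found 53.7% of 1.5-fold, 82.1% of 2-fold and 98.5% of 4-fold changes, and 1.89% of its calls were false. The spread of these counts was estimated from the WT livers only. The rates therefore do not cover rows with a wider spread in KO livers.

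Members matched RefSeq GRCm38.p6 (74, of which 22 by an older symbol) and GENCODE M21 (72). Near copies are transcripts with at least 90% identity over 50% of the member by BLAST 2.17.0. Members, lists and rules were chosen with earlier results of these data known. Named rows are up to 12 largest rises and falls past the threshold, up to 6 more with separate ranges, rows equal to another row, 2 on each side of the floor, the 5 highest means, the smallest p per class, and their overlapping or nearest genes. Other rows discussed, apart from Lcorl, the marker lists and the rows flagged for a liver standing apart, were named after their values were seen. This holds also where it is not said beside them, as for Mug1 and the near-copy pairs outside these rules.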

Additional observations from a re-analysis of the deposited data

Results flagged for a closer look

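In each genotype, the highest and lowest liver of every member was compared with the other 5, and a liver stood apart when its gap to the nearest, as a share of the group's range, exceeded Dixon's 95% critical value for 6 samples. Of 150 groups, 12 had such a liver, where chance gives about 1 in 20, or 7.5.

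KO 2 stood high for 3 pseudogenes. Gm13363, a near copy of the phosphatase gene Ptp4a1, had 842 normalized counts there and 339 to 513 in the other KO livers. Gm20257, whose transcript is 88.7% identical to Casp8, had 154 and 42.5 to 75.7. Gm9855, a near copy of the DNA glycosylase gene Tdg, had 206 and 153 to 163. Of the matched genes, Tdg and Ptp4a1 were also highest in KO 2. Tdg had 206 there and 154 to 163 in the other KO livers. These are nearly the counts of Gm9855, so the 2 rows are hardly separate measurements. Ptp4a1 had 4731 in KO 2 and 1747 to 2809 in the other KO livers. Casp8 was not, at 1019 and 956 to 1132. The summed level of the 4 bile duct markers was 563 in KO 2, 216 to 299 in the other KO livers and 252 to 313 in WT livers, and its part in these values was not tested.

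KO 5 stood high for the interferon-inducible Gm12250, at 1292 against 64.3 to 327 in the other KO livers, and for Gm4951, at 4111 against 2317 to 2897. KO 1 stood high for Gm6484 (Angptl8), at 6942 against 1994 to 3161, and KO 6 low for Gm4788, at 6968 against 8215 to 8917. The summed level of the 5 endothelial markers was 3548 in KO 1 and 6840 to 7261 in the other KO livers, and that of the 5 erythroid markers was 9280 in KO 6 and 2668 to 5186 in the other KO livers. Their part in these values was not tested.

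Among WT livers, WT 4 stood apart for 3 members, with Gm12191 low at 1272 against 1671 to 1907 in the other WT livers, Gm10069 low at 39.5 against 88.6 to 116, and Gm11837 high at 125 against 90.4 to 101. The erythroid markers summed to 3358 in WT 4 and 5467 to 16276 in the other WT livers, and their part was not tested. WT 2 stood high for Gm20605, at 941 against 758 to 814. WT 6 stood high for Gm16157, at 423 against 204 to 265. None of these 12 members passed the genotype test.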

How the results depend on the processing

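Directions of the 5 passing members held under all alternatives run. Of 23 alternatives, Gm10319 kept its call in 23, Gm4285 in 22, Gm14403 in 14, Gm15408 in 13 and Gm16515 in 12. Over the 13 named members 262 of 297 values kept direction and side of the threshold while 31 lost the call. All 31 belonged to these 5 members, since the other named members had no call to lose. The sign changed for 4 values near 0 that never passed: Gm15772 at 0.023 with animal number runs as a block and 0.00078 without KO 2 and WT 6, and Gm5424 at −0.0304 without KO 2 and WT 6 and −0.00999 without WT 6, within a range of −0.00999 to 0.207 as each library was left out. The cause was not tested. Counts moved more. DESeq2 on recovered reads called 1349 rows and 8 members, 2 of them higher in KO. With animal number runs as a block, 158 rows and 1 member passed, 0 higher and 1 lower in KO, and 1 changed at least 1.5-fold. Without KO 2 and WT 6 together, 917 rows passed and 2 members were higher in KO, and 5 had separate ranges. Leaving out each library in turn gave 224 to 933 rows, 2 to 6 members, 1 to 5 of them lower in KO, 2 to 5 changed at least 1.5-fold, and 3 to 4 with separate ranges. Ranges of fewer livers separate more easily for any row. Under these alternatives no share over all rows is given for counts by direction or by 1.5-fold change. None is given for separate ranges with livers left out either. Nothing is drawn from any of those counts. A floor of 20 gave 8 passing of 115 Gm rows (6.96%, beside 4.56% of all rows at that floor) and 6 with separate ranges (5.22%, beside 3.06%). A floor of 100 gave 3 passing of 52 (5.77%, beside 4.78%), since the floor sets how many Gm rows are counted. For the other settings the cause was not tested. Separate ranges cannot change with the pseudocount, the test or the filter. No paired analysis was possible because the labels give each mouse its own number and no replicate number shared between genotypes. With 6 livers a group and the spread of WT livers, simulated 1.5-fold changes were recovered in 53.7% of cases. Members with a mean near 50 rest on few reads.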
